A study of Danio rerio with 12 samples.

Results

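The genes pycard (ENSDARG00000040076) and gbp2 (ENSDARG00000038669) were followed across 12 tubes of zebrafish cells labelled microglia, the resident macrophages of the brain. They are 2 of the 35117 genes in the count table, and both were chosen because of their counts across the 4 genotypes, so their levels are described here and carry no test. pycard had counts in 12 of 12 tubes and gbp2 in 9 of 12, and both passed the filter on low counts that left 9519 genes. In DMut cells pycard was 3.41-fold lower than in siblings, and no gbp2 count was found in DMut. Summed microglia markers were also lower in every DMut tube than in any other tube, as given below.

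The tubes came from embryos at 3 days post fertilisation that carried Tg(mpeg1:DsRedx), in which the promoter of the macrophage gene mpeg1 drives a red fluorescent protein, so every genotype shares this transgene and the cells were chosen by its colour. Brains of about 10 embryos were pooled and dissociated, and 3 red cells were picked by hand into each tube, with 3 tubes for each genotype and amplification by Smart-seq2, a full-length poly(A) RNA method. The genotypes were DMut, the mafba single mutant, the mafbb single mutant, and siblings. The labels do not spell out DMut, do not give the alleles of any mutant or the genotype of the siblings, and do not say whether tubes of a genotype came from separate dissections, so the spread between tubes may be partly technical.

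pycard encodes ASC, the adaptor of the inflammasome, a protein complex that macrophages assemble on sensing microbes or damage. ASC carries a pyrin domain and a caspase recruitment domain, and it links sensor proteins to inflammatory caspases, which cut the cytokine IL-1β and pore-forming gasdermins. In zebrafish the inflammatory caspases Caspa and Caspb themselves carry a pyrin domain, through which Caspa binds ASC. Guanylate-binding proteins such as Gbp2 are interferon-inducible GTPases that in mammals coat vacuoles and bacteria and promote inflammasome activation.

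pycard was lowest in DMut and highest in mafbb mutants. Its level, in CPM (counts scaled to a common library size after TMM, a trimmed mean of log ratios between libraries), was 78.4, 95.1 and 149 CPM in the DMut tubes, 483, 850 and 398 in the mafba tubes, 683, 440 and 1305 in the mafbb tubes, and 429, 216 and 453 in the sibling tubes. Every DMut tube lay below each of the other 9 tubes, whereas the ranges of mafba, mafbb and siblings overlapped. The counts behind these levels were 807 to 1384 in DMut, 5844 to 9303 in mafba, 5910 to 22580 in mafbb and 2121 to 6333 in siblings. Counting error of the reads was therefore small beside the spread between tubes. Sampling of molecules is not covered, since the reads carry no molecular identifiers. The group means were 107 ± 36.7 CPM in DMut, 577 ± 240 in mafba, 809 ± 446 in mafbb and 366 ± 130 in siblings (SD, n = 3 each).

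From the edgeR model over all tubes, the log2 fold change of pycard was -1.77 ± 0.47 (SE) in DMut against siblings, -2.43 ± 0.48 in DMut against mafba and -2.91 ± 0.49 in DMut against mafbb. These correspond to mean levels 3.41-fold, 5.38-fold and 7.54-fold lower in DMut. Against siblings the single mutants had log2 fold changes of 0.66 ± 0.46 in mafba and 1.15 ± 0.46 in mafbb, with overlapping ranges in both cases. The order of the means was therefore mafbb, mafba, siblings and DMut, in which only the step to DMut separated the tubes. The contrasts share tubes, since DMut and siblings each enter 3 of them.

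The lower pycard level in DMut kept its direction under every scaling tried, but the order of mafbb and siblings did not. With libraries scaled to the ERCC spike-ins, synthetic control RNAs, pycard in mafbb against siblings turned to -0.34, and its difference between DMut and mafbb shrank to -1.01, while with DESeq2 size factors these values were 1.85 and -3.85. The mafbb tubes had the highest share of spike-in counts, 0.662% to 0.798%, against 0.0946% to 0.452% in the tubes of the other genotypes. Spike-in scaling moved the median log2 fold change of all tested genes by -1.38 in mafbb against siblings, by 1.78 in DMut against mafbb and by 0.41 in DMut against siblings. Relative to the median of all genes, pycard in DMut against siblings stood at -1.83 with TMM and at -1.82 with spike-in scaling. A change of scaling moves all genes of a contrast nearly alike. The likeness of these 2 values follows from that and does not bear on which scaling is right. Fewer cells and less RNA per cell cannot be told apart in such tubes.

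Per 1000 spike-in counts, pycard had 25.04 to 101 counts in DMut, 113 to 780 in mafba, 68.7 to 174 in mafbb and 76.2 to 229 in siblings. On this scale the DMut range overlapped those of mafbb and siblings and lay below that of mafba.

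gbp2 had no count in any of the 3 DMut tubes. It was measured at 0.107, 79.8 and 96.0 CPM in the mafba tubes, 237, 23.4 and 15.6 CPM in the mafbb tubes, and 117, 46.2 and 194 CPM in the sibling tubes. The counts were 2, 874 and 1408 in mafba, 2821, 315 and 270 in mafbb, and 1729, 454 and 2495 in siblings. All sibling and mafbb tubes held at least 270 gbp2 counts, and mafba replicate 1 stood with the DMut tubes.

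A count of 0 in a DMut tube allows up to 3 counts, or 0.237 to 0.354 CPM, and the 2 counts of mafba replicate 1 have an exact Poisson 95% interval of 0.0130 to 0.387 CPM. That tube and DMut could not be told apart at this depth, although its library was the deepest, with 17689266 counts. These limits cover counting error only, since the reads carry no molecular identifiers. Set to a floor of 3 counts over the group, gbp2 in DMut was 1208-fold below the mean of siblings. The figure was 595-fold for mafba and 933-fold for mafbb. On the log2 scale these values were -10.24, -9.22 and -9.87. They take the mean of the other group as exact, so they are no lower bounds once the spread between tubes is counted. They shrank to -9.46, -8.44 and -9.09 without DMut replicate 1, since 3 counts are then set against fewer libraries, and the last shrank to -7.63 without mafbb replicate 1.

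**Figure D1:**
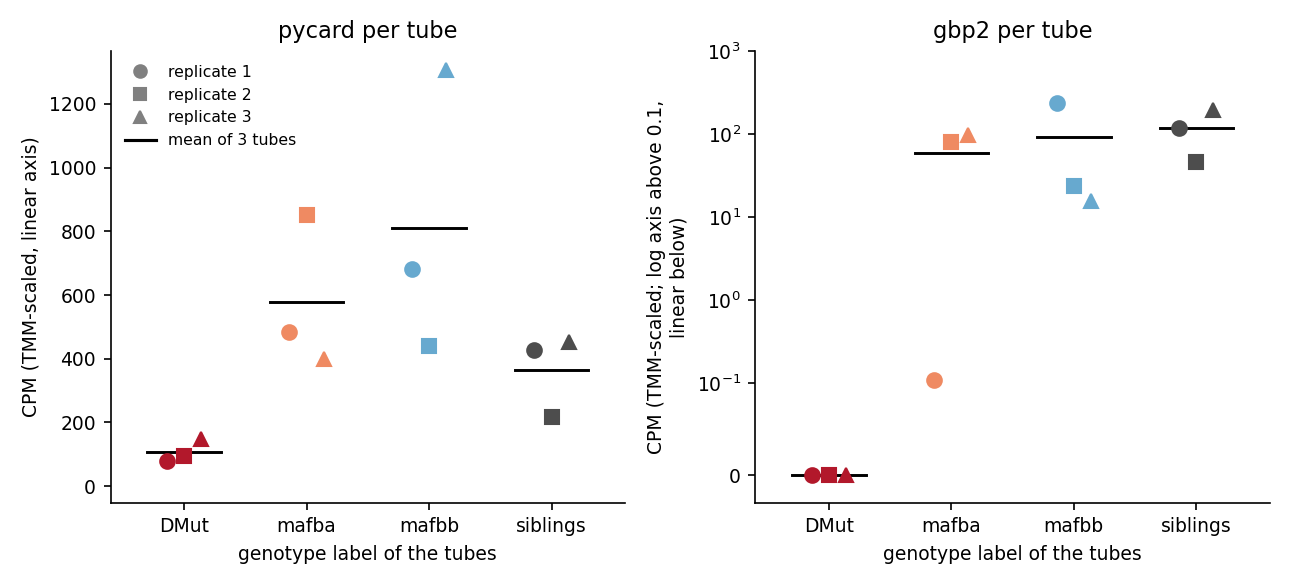
Level of pycard (left, linear axis) and gbp2 (right, log axis above 0.1 and linear below) in CPM in each tube, with replicates as circles, squares and triangles and the mean of 3 tubes as a line, for DMut, mafba, mafbb and siblings. All DMut tubes lie at or below 149 CPM for pycard and at 0 for gbp2, and mafba replicate 1 lies at 0.107 CPM for gbp2.

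The mean of gbp2 was 58.6 ± 51.3 CPM in mafba, 91.9 ± 125 in mafbb and 119 ± 73.8 in siblings (SD, n = 3 each), and these ranges overlapped. In mafba it stood at -1.02 ± 1.65 (SE) against siblings on the log2 scale, and in mafbb at -0.37 ± 1.64. The mafbb value had no stable direction: it was 0.11 with DESeq2 size factors, 0.088 with TMMwsp, a variant of TMM for tables with many zeros, and -1.79 with spike-in scaling. It was 0.18 without siblings replicate 3, 0.08 without mafbb replicate 2, 0.13 without mafbb replicate 3 and -2.61 without mafbb replicate 1, the tube with 237 CPM. For mafba against siblings the value was -0.44 without mafba replicate 1.

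The separation of DMut from all other tubes was not particular to the pair. Of the 9519 tested genes, 95, or 0.998%, had every DMut tube below all 9 other tubes, and pycard and gbp2 are among them because they were chosen for it. The share was 2.42% (48 of 1981) among genes counted in all 12 tubes, as pycard was. Of the 2195 genes counted in all 9 other tubes, 20 (0.911%) had no count in DMut, as gbp2 had. For gbp2 the place among the 95 and among the 20 rests on the 2 counts of mafba replicate 1. That tube could not be told apart from DMut at this depth. Between DMut and siblings alone, 7.33% of the tested genes had every DMut tube below every sibling tube, and the share was 7.11% for DMut and mafba and 3.68% for DMut and mafbb. A tube with near-absent counts of an otherwise abundant gene, as gbp2 showed in mafba replicate 1, was no rarity: 8.3% of the genes with 500 or more counts in the other mafba tubes had 2 counts or fewer in 1 tube.

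The spread of pycard between tubes of a genotype was at or below that of other genes counted in all tubes. Its coefficient of variation was 34.2% in DMut, 41.6% in mafba, 55.2% in mafbb and 35.6% in siblings, and the medians over the 1981 genes counted in all tubes were 41.4%, 41.7%, 61.1% and 42.2% in the same genotypes. By level, 9.41% to 16.4% of tested genes had more counts than pycard in the DMut tubes, and 1.03% to 6.58% had more in the other 9 tubes.

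Total counts were 10014888 to 11580574 in DMut, 12603769 to 17689266 in mafba, 11072464 to 16266247 in mafbb and 10726836 to 13085239 in siblings. Genes detected per tube were 7808 to 9297 in DMut, 7038 to 10521 in mafba, 5100 to 6141 in mafbb and 7077 to 7665 in siblings. Every mafbb tube thus had fewer genes than any tube of the other genotypes. The part of this in the mafbb levels was not tested. In DMut against siblings the edgeR quasi-likelihood test called 68 genes, 0.714% of those tested, at a Benjamini-Hochberg adjusted p under 0.05. Of these, with TMM, 24 were higher and 44 lower. Separate fits called 13 higher and 51 lower with DESeq2 size factors, 16 and 49 with library size alone, and 22 and 25 with spike-in scaling. DMut against mafbb had 36 higher and 33 lower calls with TMM, 24 and 59 with TMMwsp, 21 and 81 with DESeq2 size factors, 32 and 46 with library size alone and 345 and 21 with spike-in scaling. mafbb against siblings had 2 higher and 5 lower with TMM, 7 and 3 with TMMwsp, 4 and 2 with DESeq2 size factors and 2 and 68 with spike-in scaling.

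The DMut tubes also differed in the markers of their cells. The 15 microglia markers summed to 4827 to 9367 CPM in DMut, 19885 to 70891 in mafba, 21465 to 40134 in mafbb and 42067 to 73010 in siblings. Of the 14 tested, 6 were called lower in DMut than in siblings, as were 0.462% of all tested genes. In DMut 5 of the 15, the lipoprotein gene apoeb among them, were at 0, against 0 of the 15 in mafba. An entry of MPEG1, 1 of the 15, was at 0 in mafbb, as was 1 in siblings. The 11 pan-myeloid markers were present in every genotype, at 10521 to 11809 CPM in DMut, 8929 to 10434 in mafba, 7116 to 8681 in mafbb and 6966 to 9324 in siblings. The 10 neutrophil markers summed to 405 to 594 CPM in DMut, with 4 of them at 0, against 0 to 61.2 in mafba and 0 in mafbb and siblings. The 14 epidermal and metaphocyte markers summed to 216 to 1774 CPM in DMut, with 4 at 0, against 0.161 to 1204 in mafba, 0 in mafbb and 0.311 to 95.03 in siblings. Of the 8 radial glia markers, 4 were at 0 in DMut and in siblings and 3 in mafba and in mafbb. GFAP, her4.1 and S100B were at 0 in every genotype. Entries of FABP7, GLUL and GJA1 alone thus carried the sum of the 8, which was 135 to 394 CPM in DMut and 3999 to 9612 in siblings. The sums were 2581 to 9277 CPM in mafba and 1610 to 2788 in mafbb. The 6 endothelial markers summed to 0 to 5.54 CPM in DMut and 52.0 to 107 in mafba. Their sum was 0 to 153 CPM in mafbb and 0.542 to 95.5 in siblings. The 7 neuronal markers summed to 0 to 27.9 CPM in DMut and 22.4 to 104 in mafba. Their sum was 0.231 to 50.2 CPM in mafbb and 0 to 2.44 in siblings. The 5 erythroid markers were at 0 in every genotype. The part of these differences in the levels of pycard and gbp2 was not tested. In mafba replicate 1, the tube nearly without gbp2, microglia markers summed to 19885 CPM, neutrophil markers were at 0 and epidermal and metaphocyte markers were at 0.161 CPM.

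In the RefSeq gene order of assembly GRCz12tu, caspa, which encodes a caspase that binds ASC, is next to pycard on chromosome 16, and gbp1, a second guanylate-binding protein gene, is next to gbp2 on chromosome 2. The counts were made on GRCz11, so the order is given without positions. caspa was counted in all 12 tubes, at 64.0 ± 19.9 CPM in DMut, 87.6 ± 10.5 in mafba, 147 ± 125 in mafbb and 91.5 ± 41.1 in siblings (SD, n = 3 each). Its log2 fold change in DMut against siblings was -0.52 (adjusted p = 1, edgeR). Against mafba it was -0.45 (adjusted p = 1) and against mafbb -1.20 (adjusted p = 0.718), so no difference of caspa passed the test, and the last turned to 0.64 with spike-in scaling and shrank to -0.25 without mafbb replicate 2.

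The ratio of pycard to caspa counts within a tube does not depend on how libraries are scaled. It was 0.902, 1.75 and 2.92 in DMut, 6.16, 8.57 and 4.68 in mafba, 12.8, 1.53 and 13.2 in mafbb, and 4.001, 4.81 and 3.69 in siblings. The DMut ratios lay below all mafba and sibling ratios and overlapped the mafbb range, in which replicate 2 stood apart with 3874 caspa counts. Since pycard was chosen for its counts, its low ratio in DMut partly describes that choice and carries no test. The counts are not divided by gene length, so a ratio is read only across tubes.

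gbp1 was counted in all 12 tubes, at 59.6 ± 16.6 CPM in DMut, 173 ± 55.3 in mafba, 179 ± 139 in mafbb and 195 ± 155 in siblings (SD, n = 3 each). Its log2 fold change was -1.71 in DMut against siblings (adjusted p = 0.396, edgeR), -1.54 against mafba (adjusted p = 0.729) and -1.59 against mafbb (adjusted p = 0.290), the last 0.34 with spike-in scaling. Without siblings replicate 1 the first was -1.09. In the DMut tubes that had no gbp2, gbp1 had 853, 344 and 660 counts, and in mafba replicate 1 it had 3869 counts beside 2 of gbp2. The ratio of gbp2 to gbp1 counts was 0 in DMut, 0.000517 to 0.731 in mafba, 0.0675 to 1.098 in mafbb and 0.356 to 1.79 in siblings. gbp1 and gbp2 are related in sequence and the labels do not say how shared reads were counted, so the split between them is uncertain.

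**Figure D2:**
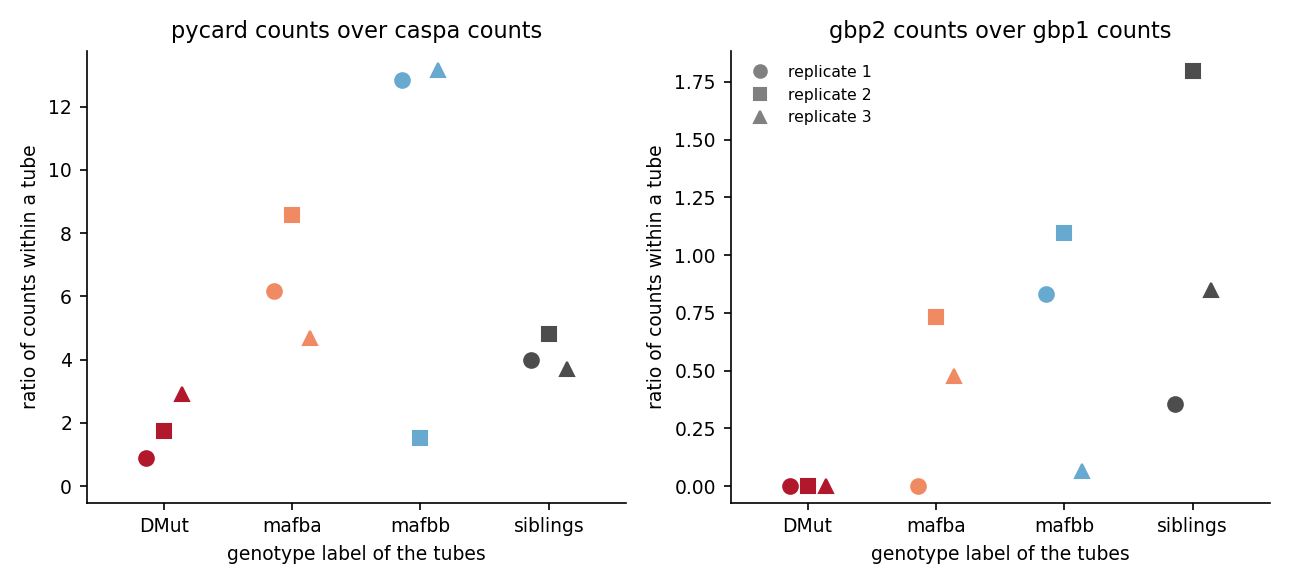
Ratio of pycard to caspa counts (left) and of gbp2 to gbp1 counts (right) within each tube on linear axes, for DMut, mafba, mafbb and siblings, with replicates as circles, squares and triangles. DMut ratios lie at or below 2.92 for pycard, with mafbb replicate 2 among them at 1.53, and at 0 for gbp2.

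**Figure D3:**
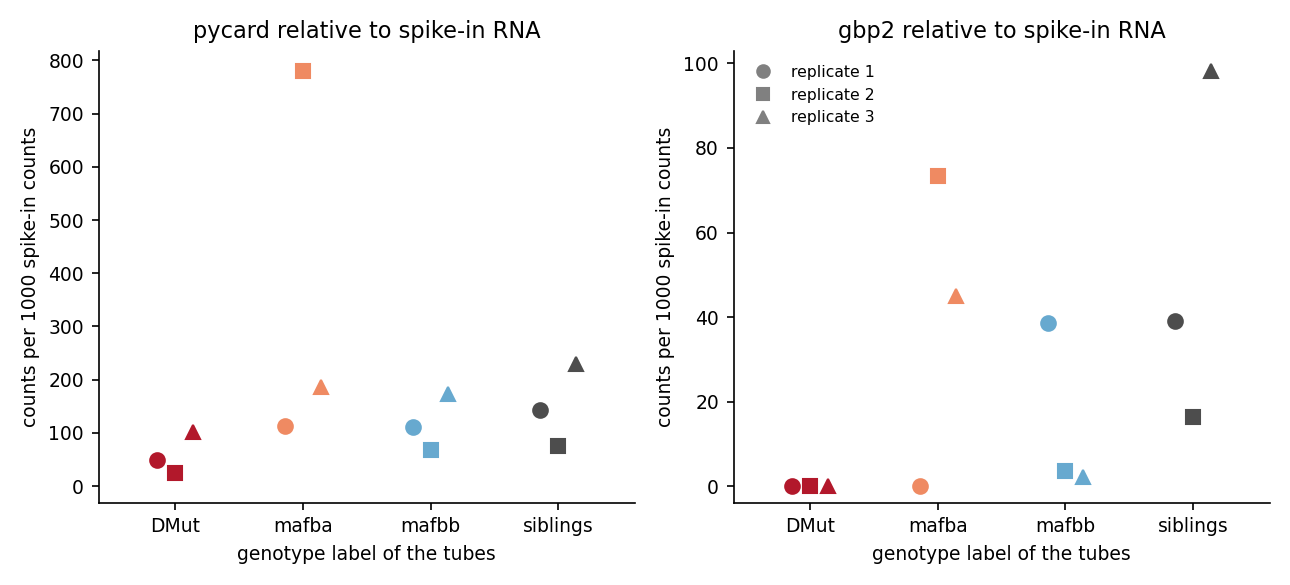
Counts of pycard (left) and gbp2 (right) per 1000 spike-in counts in each tube on linear axes, for DMut, mafba, mafbb and siblings. The DMut tubes reach 101 for pycard and overlap mafbb and siblings, and mafba replicate 2 stands highest at 780.

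The other genes of the inflammasome and interferon pathways were set beside the pair as 7 lists with 108 genes in the table, of which 59 were tested. None was called by edgeR in any of the 5 contrasts, against 0.714% of all tested genes in DMut against siblings, 0% in mafba against siblings, 0.0735% in mafbb against siblings, 0.399% in DMut against mafba and 0.725% in DMut against mafbb. At an unadjusted p under 0.05 there were 6, 6, 10, 5 and 12 of the 59 in the same order of contrasts, beside 12.5%, 7.82%, 18.6%, 8.03% and 20.6% of all tested genes. DESeq2, which applies its own filter, called 4 of 55, 5 of 54, 9 of 57, 4 of 54 and 6 of 55 list genes that had an adjusted p, beside 7.55%, 3.7%, 12.5%, 4.47% and 13.3% of all genes that had one. The median log2 fold change of the lists in DMut against siblings was 0.00, and that of all tested genes was 0.07.

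The sensor list held 8 genes of the NOD-like receptor family, to which microbial sensors and regulators belong, of which 2 were tested and neither passed in any contrast. NOD1, a receptor for peptidoglycan fragments, was at 18.2, 0 and 2.04 CPM in DMut, 0, 34.1 and 20.9 in mafba, 74.7, 0 and 0.0578 in mafbb, and 58.5, 54.0 and 36.4 in siblings. All sibling tubes held NOD1, and each mutant genotype had a tube without it. The reverse was seen too: MYD88, described below, had no count in siblings replicate 1 and was counted in every mutant tube. The share of all genes with either pattern was not computed. NLRX1, a mitochondrial member of the family, averaged 24.1 ± 9.47 CPM in DMut, 8.23 ± 11.105 in mafba, 20.7 ± 35.9 in mafbb and 12.7 ± 21.9 in siblings (SD, n = 3 each).

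Of 7 caspase genes 4 were tested and none passed. casp8, an initiator caspase of apoptosis, averaged 10.8 ± 10.2 CPM in DMut, 40.7 ± 8.11 in mafba, 27.1 ± 46.9 in mafbb and 17.7 ± 19.2 in siblings. casp22 averaged 35.1 ± 29.9 CPM in DMut, 0.719 ± 0.818 in mafba, 19.3 ± 33.4 in mafbb and 42.9 ± 50.6 in siblings, and casp20 had counts in only 5 tubes. The second pyrin-domain caspase, caspb, was nearly absent, with 103 counts in mafba replicate 2 and none in the other 11 tubes. Its relative caspbl had 205 counts in that tube and 208 in mafbb replicate 2, and casp23 had 150 counts in DMut replicate 3 and 17 in siblings replicate 3.

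Downstream of the caspases, il1b, the gene of the inflammasome's cytokine, was abundant in every tube, at 1388 ± 801 CPM in DMut, 2417 ± 846 in mafba, 3430 ± 1124 in mafbb and 2493 ± 1854 in siblings (SD, n = 3 each). Its lowest and highest tubes were 597 and 2198 CPM in DMut and 750 and 4441 CPM in siblings, so the ranges overlapped. The log2 fold change in DMut was -0.85 against siblings (adjusted p = 0.978, edgeR), -0.80 against mafba (adjusted p = 1) and -1.31 against mafbb (adjusted p = 0.323), the last 0.56 with spike-in scaling. Without siblings replicate 2 the first was -0.12. The pore-forming gasdermin gene gsdmea averaged 23.3 ± 8.76 CPM in DMut, 14.03 ± 11.3 in mafba, 18.7 ± 16.2 in mafbb and 55.6 ± 60.6 in siblings. The gene listed as GSDME was counted in 3 tubes only, and averaged 20.6 ± 20.1 CPM in DMut, 13.3 ± 23.0 in mafba and 0 in mafbb and siblings. il1fma, an IL-1 family gene, averaged 40.5 ± 45.7 CPM in DMut, 0.596 ± 0.987 in mafba, 0 in mafbb and 17.0 ± 15.8 in siblings. NINJ1, whose product ruptures the membrane of dying cells in mammals, had 57 counts in siblings replicate 3 and none elsewhere.

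Of the 16 genes of inflammasome licensing and IL-1 signalling, 14 were tested and none passed. NEK7, a kinase that in mammals binds the sensor NLRP3, was at a like level in all genotypes, with means of 75.6 ± 37.2 CPM in DMut, 89.8 ± 19.4 in mafba, 99.9 ± 12.2 in mafbb and 82.5 ± 30.4 in siblings. MYD88, the adaptor of Toll-like and IL-1 receptors, averaged 83.5 ± 45.9 CPM in DMut, 81.7 ± 24.8 in mafba, 253 ± 260 in mafbb and 170 ± 169 in siblings. TXNIP, a thioredoxin-binding protein, averaged 201 ± 44.5 CPM in DMut, 153 ± 16.9 in mafba, 98.5 ± 124 in mafbb and 88.7 ± 135 in siblings. Another entry of TXNIP had no count in any tube. IRAK3, a negative regulator of this pathway, averaged 124 ± 57.5 CPM in DMut, 50.6 ± 9.67 in mafba, 70.6 ± 35.4 in mafbb and 82.4 ± 26.0 in siblings. None of these 4 means was lowest in DMut by more than the spread between tubes.

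Among the 11 other guanylate-binding and immunity-related GTPase genes, 3 were tested and none passed. gbp4 had no count in any tube, and gbp3 had 116 counts in DMut replicate 3, 158 in siblings replicate 2 and at most 7 in any other tube. The immunity-related GTPase irge4 averaged 54.8 ± 48.6 CPM in DMut, 34.3 ± 9.97 in mafba, 11.4 ± 19.6 in mafbb and 24.1 ± 13.8 in siblings. irgq1, of the same superfamily, averaged 32.6 ± 29.8 CPM in DMut, 73.6 ± 91.8 in mafba, 35.3 ± 61.1 in mafbb and 11.58 ± 20.1 in siblings.

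Of 25 interferon signalling genes 18 were tested and none passed. JAK1, a kinase of interferon receptors, averaged 210 ± 87.8 CPM in DMut, 280 ± 29.8 in mafba, 146 ± 44.0 in mafbb and 332 ± 157 in siblings. ifngr2, a subunit of the interferon-gamma receptor, averaged 98.4 ± 12.02 CPM in DMut, 95.7 ± 80.7 in mafba, 89.3 ± 77.5 in mafbb and 163 ± 67.6 in siblings. IRF8, a transcription factor needed for macrophage development, averaged 58.8 ± 82.4 CPM in DMut, 78.0 ± 80.6 in mafba, 123 ± 66.4 in mafbb and 114 ± 76.2 in siblings. irf1b, related to the IRF1 that induces mammalian guanylate-binding protein genes, averaged 76.6 ± 83.8 CPM in DMut, 83.1 ± 53.2 in mafba, 91.2 ± 76.7 in mafbb and 56.3 ± 33.0 in siblings.

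Of 36 interferon-induced genes 14 were tested and none passed. The 36 summed to 131 to 165 CPM in DMut, 207 to 560 in mafba and 197 to 261 in siblings. In mafbb the sum was 59.0 to 456 CPM. The DMut tubes thus lay below the mafba and sibling tubes and within the mafbb range. Among all tested genes, 7.11% had every DMut tube below every mafba tube and 7.33% below every sibling tube. These shares are for single genes, and none was computed for sums of 36 genes. Of the 36, 23 had no count in DMut, 21 in mafba, 23 in mafbb and 20 in siblings, so few genes carry the sums. The ubiquitin-like modifier isg15 was at 0, 17.8 and 0 CPM in DMut, 202, 0 and 14.1 in mafba, 261, 0 and 0 in mafbb, and 0, 30.4 and 0 in siblings, so that it was absent from tubes of every genotype. trim25, a ubiquitin ligase, averaged 38.6 ± 10.2 CPM in DMut, 78.3 ± 18.6 in mafba, 0.0839 ± 0.145 in mafbb and 15.7 ± 13.8 in siblings. ifi35 averaged 13.7 ± 12.4 CPM in DMut, 45.1 ± 41.0 in mafba, 79.9 ± 77.0 in mafbb and 17.4 ± 16.1 in siblings. isg20, an exonuclease gene, averaged 34.7 ± 34.2 CPM in DMut, 23.5 ± 21.1 in mafba, 21.4 ± 21.0 in mafbb and 26.3 ± 24.0 in siblings.

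**Figure D4:**
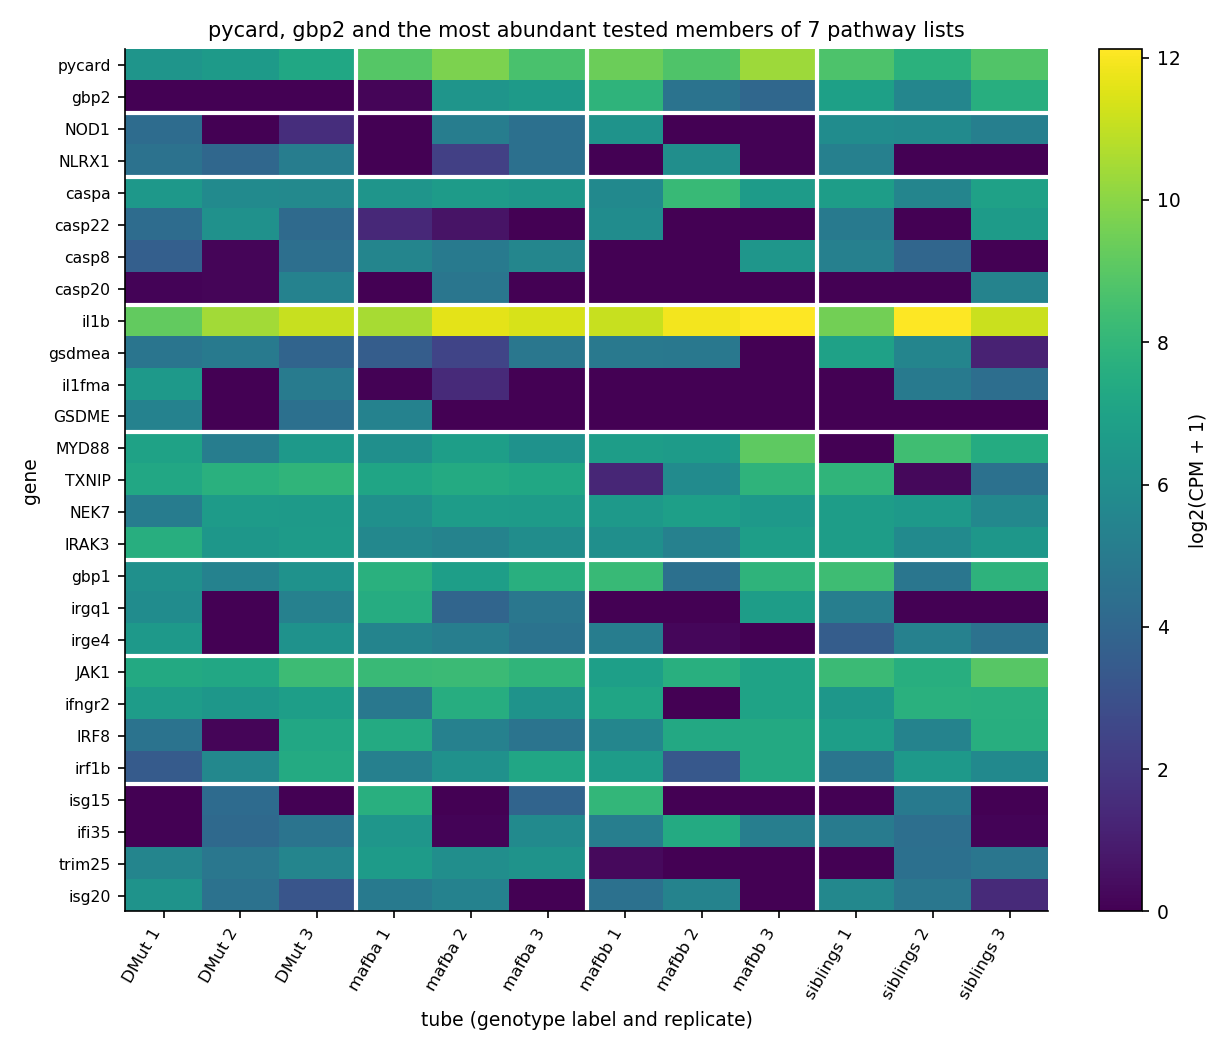
Level, as log2(CPM + 1), of pycard, gbp2 and up to 4 of the most abundant tested members of each pathway list in each tube, with white lines between lists and between DMut, mafba, mafbb and siblings. il1b is bright in every tube, gbp2 is dark in the 3 DMut tubes and mafba replicate 1, and many other genes are at or near 0 in single tubes of any genotype.

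No correlation of pycard and gbp2 was seen once DMut was left aside. Over 12 tubes Pearson's r of log2(CPM + 1) between them was 0.635 and Spearman's rho 0.507, and over the 9 tubes without DMut r was -0.06. Since DMut was low for both by choice, the first value describes that choice. The value of -0.06 rests on 9 tubes, with mafba replicate 1 nearly without gbp2, so it does not exclude a correlation.

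The gene most like pycard over the 12 tubes was FOS, an immediate early transcription factor gene, with r = 0.946, and with r = 0.825 over the 9 tubes without DMut. Its mean was 41.9 CPM in DMut, 340 in mafba, 490 in mafbb and 364 in siblings. Next came NDUFB10, a subunit of mitochondrial complex I (r = 0.892), DYNLT3, a dynein light chain (r = 0.873), smim15 (r = 0.865) and PSMD4, a proteasome subunit that binds ubiquitin (r = 0.864). Without DMut their r fell to between 0.572 and 0.748.

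The gene most like gbp2 was ctsf, which encodes the lysosomal protease cathepsin F, with r = 0.916 over 12 tubes and 0.781 over 9. Its mean was 36.5 CPM in DMut, 117 in mafba, 159 in mafbb and 140 in siblings. The ion exchanger gene SLC24A3 (r = 0.900) and the phosphodiesterase gene pde4bb (r = 0.897) had no count in DMut, in mafba replicate 1 or in mafbb replicate 3, where gbp2 had 15.6 CPM. CHAC1, which degrades glutathione, followed with r = 0.880 and the membrane protein gene TMEM63B with r = 0.878. Like gbp2, all 5 genes had their lowest mafba level in replicate 1. The genes were picked for their correlation with gbp2 over these same tubes, as those above were for pycard. The shared low tube and the r over 9 tubes therefore partly describe that choice. Without DMut, r was 0.834 for SLC24A3, 0.806 for pde4bb, 0.863 for CHAC1 and 0.795 for TMEM63B, so ctsf was then the least alike of the 5. These values share libraries, depth and the DMut tubes, and with a pseudocount of 10 CPM only 2 of the 5 genes for pycard and 1 of the 5 for gbp2 stayed among the 5 most alike.

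**Figure D5:**
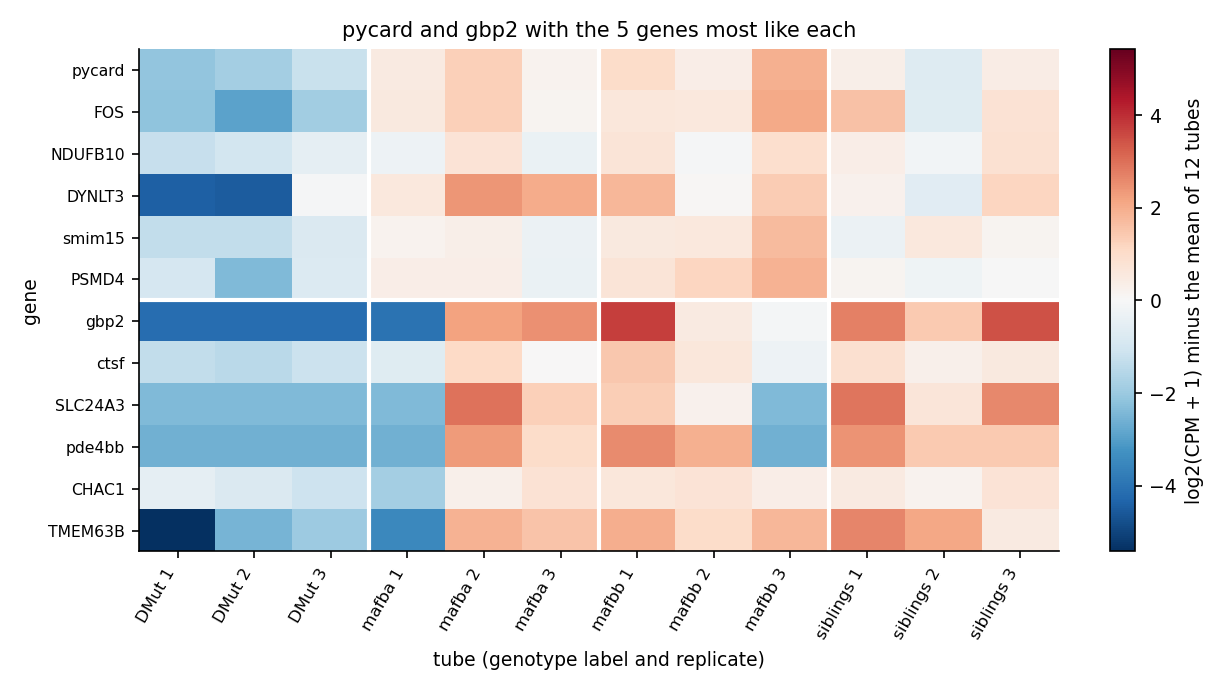
Level, as log2(CPM + 1) minus the mean of the 12 tubes, of pycard with the 5 genes most like it (upper block) and of gbp2 with the 5 most like it (lower block), in each tube of DMut, mafba, mafbb and siblings. pycard and FOS are below their mean in all DMut tubes and highest in mafbb replicate 3, and gbp2, SLC24A3 and pde4bb share their low level in DMut and mafba replicate 1.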

How the data were processed

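The authors deposited raw counts of genes by tube, not normalized, with 92 ERCC spike-in rows. Per the submitters' processing notes, Trim Galore and STAR were used with GRCz11 (danRer11). Versions, the counting tool, the annotation and strandedness were not stated there. Genes were filtered by filterByExpr of edgeR 4.0.16 in R 4.3.3 (minimum count 10, minimum total 15), scaled by TMM without spike-ins, and fitted by the quasi-likelihood model (robust) with a term per genotype over 12 tubes. Calls needed a Benjamini-Hochberg adjusted p under 0.05. The step was run on simulated data with planted changes far larger than those of pycard, so its power for smaller changes was not tested. The edgeR common dispersion, a measure of spread between tubes, was 4.00, so genes that were not called may still differ. Alternatives were other scalings and filters, DESeq2 1.42.0, a replicate block and leaving out each tube. The members, gene lists and tests were chosen with earlier results of these data known. The 212 list entries gave 184 matches, of which 157 were by symbol, 24 by a symbol shared by paralogues and 3 by RefSeq synonym, with several for some entries and none for 32. The genes named were the pair, inflammatory caspases, il1b, gasdermins, guanylate-binding paralogues, the up to 4 most abundant tested members of each list and those called, and the 5 named genes most correlated with each of the pair. No sequence was used, and the levels of the mutated genes are not reported here. Replicates have 3 cells each, so p-values reflect differences among tubes that may be technical.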

Additional observations from a re-analysis of the deposited data

How the results depend on the processing

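The low pycard level in DMut kept its direction under all alternatives run, whereas values in mafbb against siblings did not. For gbp2, with no count in DMut, a floor was set against the other group, so that direction was fixed and only its size could move. pycard log2 fold changes moved beyond the spread between tubes with DESeq2 size factors (1.85 in mafbb against siblings, -3.85 in DMut against mafbb), DESeq2 (1.86 and -3.96) and spike-in scaling (-0.34 and -1.01, with 1.27 in mafba against siblings). gbp2 in mafbb against siblings was 0.11 with DESeq2 size factors, 0.088 with TMMwsp, 0.056 with DESeq2, 0.18 without siblings replicate 3, 0.08 without mafbb replicate 2 and 0.13 without mafbb replicate 3, and in DMut against mafbb -8.34 with spike-in scaling. Leaving out a tube, pycard ranged from -2.07 to -1.59 (DMut against siblings), 0.28 to 0.87 (mafba against siblings), 0.62 to 1.44 (mafbb against siblings), -2.73 to -2.05 (DMut against mafba) and -3.23 to -2.39 (DMut against mafbb), and gbp2, in the same order, from -10.61 to -9.46, -1.57 to -0.44, -2.61 to 0.18, -9.80 to -8.44 and -10.37 to -7.63. The gbp2 values set by the floor in DMut were not computed under DESeq2, the replicate block or the non-robust fit.

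Genes called, given here as DMut against siblings, mafba against siblings, mafbb against siblings, DMut against mafba and DMut against mafbb, were 68, 0, 7, 38 and 69. They became 115, 12, 36, 77 and 134 with no filter and 623, 301, 1077, 364 and 1111 with DESeq2. Without the robust option they were 36, 3, 22 and 43 for the contrasts other than mafba against siblings. Spike-in scaling gave 3, 70 and 366 for mafba against siblings, mafbb against siblings and DMut against mafbb. DESeq2 size factors gave 1 for mafba against siblings, a CPM filter of 10 gave 2 for mafbb against siblings, and the compared groups alone gave 3 and 24 for mafba and mafbb against siblings. Leaving out a tube gave 44 to 57, 0 to 2, 4 to 24, 23 to 41 and 52 to 87. Moves over 1.5 times came without siblings replicate 1 (44 in DMut against siblings, 2 in mafba against siblings, 4 in mafbb against siblings), siblings replicate 3 (1 and 4 in mafba and mafbb against siblings), mafba replicate 2 (2 in mafba against siblings, 23 in DMut against mafba) and mafbb replicates 1, 2 and 3 (24, 24 and 15 in mafbb against siblings). The causes were not tested.

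Replicate numbers are shared by the genotypes but do not pair the tubes: in 18 same-numbered pairs the correlation of deviations was -0.03 to 0.04. With the replicate block the calls were 123, 11, 22, 76 and 125, and il1b was called in DMut against mafba (-0.90, adjusted p = 0.0398) and against mafbb (-1.42, adjusted p = 5.82e-06, edgeR). Spike-in scaling turned caspa (0.64), gbp1 (0.34) and il1b (0.56) in DMut against mafbb. Pathway list counts were the same in 540 of 560 alternatives and higher in 20. With 3 cells a tube, absence of a gene from 1 tube is limited by depth and cell number.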
